A study of Homo sapiens with 12 samples.

Results

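The 10 imprinted genes described here are IGF2, CDKN1C, PLAGL1, PEG3, PEG10, MEST, DLK1, GRB10, NDN and MAGEL2, all 10 among the 20037 protein-coding genes on the chromosomes in the RefSeq table of GRCh38.p14. They were picked by name as imprinted genes, and each was taken as its gene body with 20 kb on either side, called its window. Peaks came from CUT&Tag of HepG2/C3A, a line derived from a hepatocellular carcinoma, and CUT&Tag releases and sequences the chromatin that an antibody binds. One antibody recognised histone H3 trimethylated at lysine 27 (H3K27me3) and the other lysine succinylated on any protein (pan-succinyllysine, written Ksu). Cells had received sodium succinate at 10 mM, dissolved in sterile water, for 48 hours, or were the control of the same 48 hours, which the series' design text calls vehicle. Each antibody had 2 biological replicates per treatment, 8 libraries in all, and the 4 IgG samples were not used here. The groups share a single cancer line, kept in high-glucose medium with serum, and no RNA was measured.

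Genomic imprinting is the expression of a gene from the allele of a single parent, set by DNA methylation laid down in the germ line at imprinting control regions. H3K27me3 is written by Polycomb repressive complex 2 and marks silent chromatin, and at several imprinted domains it lies on the silent allele. Succinyllysine is a lysine modification derived from succinyl-CoA, and it occurs on histones as well as on many metabolic enzymes. Among the 10 genes, IGF2 (a fetal growth factor) and DLK1 (a transmembrane ligand of the Notch family) are signalling proteins, while CDKN1C (the cyclin-dependent kinase inhibitor p57) and GRB10 (an adaptor that inhibits insulin receptor signalling) restrain growth. PLAGL1 and PEG3 are zinc-finger proteins, PEG10 derives from a retrotransposon, MEST has a hydrolase fold, and NDN and MAGEL2 belong to the MAGE family in the Prader-Willi region. CDKN1C is expressed from the maternal allele, the parental origin of GRB10 depends on the tissue, and the other 8 are expressed from the paternal allele.

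The H3K27me3 lists differed in length, with 19133 and 5813 peaks in control replicates 1 and 2 and 9985 and 5531 in succinate replicates 1 and 2. The Ksu lists held 76702 and 382019 peaks in control and 294568 and 629903 after succinate. The number of reads is unknown from these lists, and the total signal of the weakest listed peak, called the floor, differed between libraries. In steps of each library's signal the H3K27me3 floors were 51892 and 211123 (control) against 132374 and 330250 (succinate). The Ksu floors were 8977 and 76.0 (control) against 4247 and 49.0 (succinate). The share of chromosome bases under Ksu peaks was 2.60% and 6.004% in control and 6.10% and 10.7% after succinate. For H3K27me3 it was 6.45% and 3.79% in control and 5.61% and 4.52% after succinate, so these groups overlapped. Settings with equal numbers of peaks or a common floor are therefore given beside the counts. None of 8 hepatocyte genes, albumin among them, had an H3K27me3 peak on its body in any of the 4 libraries, while 3 or 4 of 6 neuronal, muscle and blood genes did in each. In all 4 libraries together it was 0 of 8 and 3 of 6, beside 12.3% of all protein-coding genes.

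The question of the comparison was where H3K27me3 lay at the imprinted genes and whether its extent differed after succinate. H3K27me3 was found at 5 of the 10 genes, namely IGF2, CDKN1C, DLK1, PLAGL1 and GRB10, and at none of the other 5 in any library. The members differed among themselves. CDKN1C and DLK1 had more of their windows covered in both succinate libraries than in either control library, and no member had less in both. IGF2, PLAGL1 and GRB10 had groups that overlapped. Over all protein-coding genes, 9.28% of windows were covered more in both succinate libraries and 2.01% less, so 2 and 0 of 10 members stand beside these shares. Windows overlapped by a peak in all 4 libraries were 2 of 10 among the members (IGF2 and DLK1) and 20.8% among all genes, and windows with no peak were 5 of 10 and 58.0%. With 2 libraries against 2 the exact two-sided permutation test has 6 arrangements and cannot give a p below 0.333, so differences are set against the pooled SD of the replicates. Each library pools many cells and both alleles, so cover of a single allele, or in part of the cells, cannot be told apart from cover of both alleles in all cells.

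**Figure D1:**
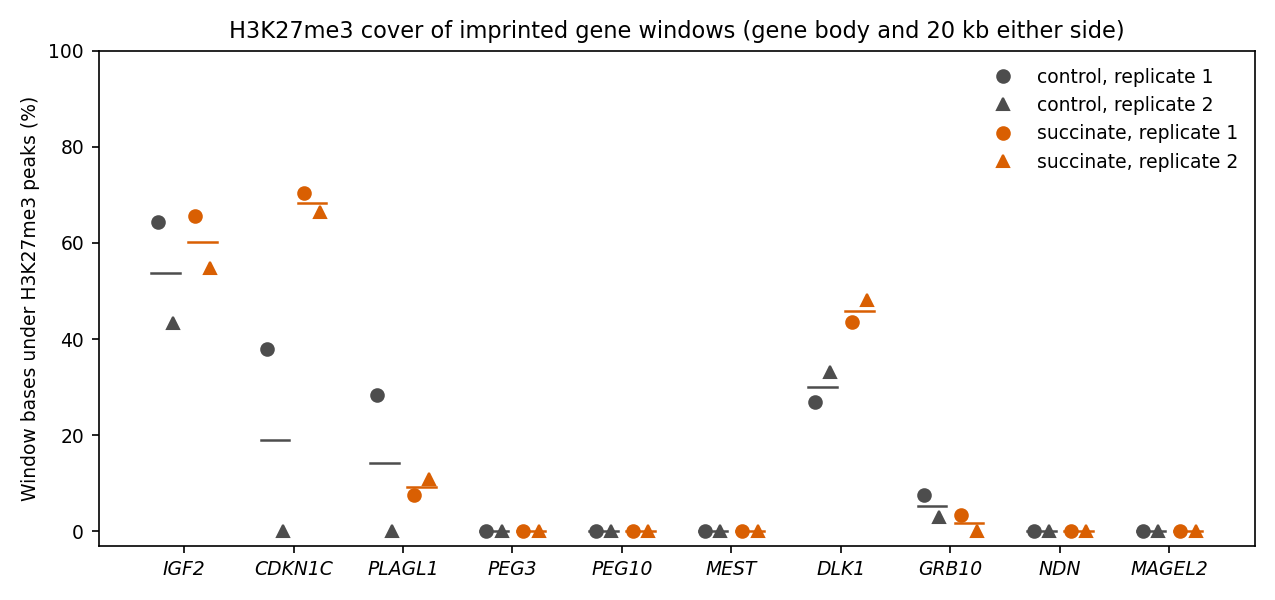
Percent of each gene's window (gene body with 20 kb either side) under H3K27me3 peaks in the 2 control and 2 succinate libraries; dots are libraries and short lines are group means. Only CDKN1C and DLK1 have both succinate libraries above both control libraries, and PEG3, PEG10, MEST, NDN and MAGEL2 are at 0.

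IGF2, on chromosome 11 from 2129117 to 2149566 (GRCh38), had the highest H3K27me3 cover of the 10 genes as a mean over the 4 libraries, while CDKN1C was covered more in both succinate libraries. Peaks covered 64.4% and 43.3% of its 60450 bp window in control replicates 1 and 2 and 65.7% and 54.8% in succinate replicates 1 and 2. The groups overlapped: the means were 53.8% ± 14.9 and 60.2% ± 7.66 (SD, n = 2 each), and their difference of 6.42 percentage points was within the pooled SD of 11.8 (p = 0.667, exact permutation test). The difference was 16.96 without control replicate 1, -4.11 without control replicate 2, 1.01 without succinate replicate 1 and 11.8 without succinate replicate 2, so its direction rested on control replicate 2. In each library the window was covered more than at least 94.0% of all protein-coding windows. A single peak made up most of this cover in each library, with widths of 64695 and 57945 bp in control and 59017 and 59143 bp after succinate. It ran from 2141926 to 2206620 in control replicate 1 and from 2141949 to 2201091 in succinate replicate 2, from inside the gene body out past its upper-coordinate end and over INS. In every library this peak was wider than at least 93.0% of that library's peaks, and its total signal was above that of at least 97.2%. Within the window, 26164 bp from 2143403 to 2169566 lay under a peak in all 4 libraries, and the log2 width of the peak differed by -0.05 between treatments. The differences between libraries at IGF2 lay on the lower-coordinate side of the window. There, both succinate libraries shared 5456 bp from 2111570 to 2117025, in peaks of 12179 and 5523 bp. Control replicate 1 had peaks of 3943 and 6343 bp there and 971 bp of a further peak, and control replicate 2 had none.

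CDKN1C, on chromosome 11 from 2883218 to 2885775 and 733651 bp from IGF2, had the largest difference of the 10 genes. Peaks covered 37.9% of its 42558 bp window in control replicate 1, 0% in control replicate 2, and 70.3% and 66.3% in the succinate libraries. Both succinate libraries lay above both control libraries, and the control libraries were far apart. The means were 18.9% ± 26.8 and 68.3% ± 2.82 (SD, n = 2 each), and the difference of 49.4 percentage points exceeded the pooled SD of 19.04 (p = 0.333 by the exact permutation test, its smallest value). The size of that difference rests on control replicate 2, since without it the difference was 30.5 percentage points. In succinate replicate 1 a single peak of 27462 bp, from 2868215 to 2895676, spanned the whole gene, and in succinate replicate 2 a peak of 27646 bp, from 2872936 to 2900581, did the same. In control replicate 1 a peak of 9664 bp, from 2873873 to 2883536, ended 319 bp inside the gene, and in control replicate 2 the nearest peak ended 20.4 kb away.

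The gene body itself was covered to 12.5% and 0% in control and to 100% in both succinate libraries. Of all 20037 genes, 23 (0.115%) had a body covered whole in both succinate libraries and under 50% in both control libraries, a count made after the values of CDKN1C were seen. The body of CDKN1C is 2558 bp long, shorter than the median H3K27me3 peak of each library (6767 to 17454 bp). Longer bodies are harder to cover whole, and the share was not matched for length. Bodies covered more in both succinate libraries were 3.71% of all genes. The succinate peaks over CDKN1C were not among the strongest of their libraries, with a total signal above that of 76.7% and 58.4% of peaks. In steps, their totals were 701027 and 891712, above the floor of every H3K27me3 library, while the control replicate 1 peak at the gene's edge totalled 220671, below the floor of 330250 in succinate replicate 2. With read depth unknown, steps do not compare strength between libraries. With peaks held to that common floor, the window values were 5.75% and 0% in control and 70.3% and 66.3% after succinate. The cut was uneven, since this floor kept all 5531 peaks of succinate replicate 2 and 4672 of 9985 in succinate replicate 1. In control it kept 3514 of 19133 peaks in replicate 1 and 3581 of 5813 in replicate 2. The part of read depth in this difference was not tested.

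The neighbouring cover on the side of KCNQ1, a potassium channel gene of the same imprinted domain, was broken in the control libraries and joined in the succinate ones. Control replicate 1 had separate peaks of 30044 and 42330 bp and control replicate 2 of 26211 and 42282 bp. In their place succinate replicates 1 and 2 had single peaks of 77883 and 76045 bp, from 2787801 to 2865683 and from 2787760 to 2863804. With 50 kb on either side of CDKN1C, cover was 52.5% and 28.8% in control and 67.2% and 65.8% after succinate, again with both succinate libraries above. SLC22A18, a transporter gene next to CDKN1C that the gene table lists as SLC67A1, had 17.7% and 0% of its window covered in control and 38.1% and 46.0% after succinate. Its window shares bases with that of CDKN1C, so it is not a separate observation.

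DLK1, on chromosome 14 from 100726892 to 100738224, had a single H3K27me3 peak in every library, and it was wider in both succinate libraries. Its widths were 13853 and 16995 bp in control and 22339 and 24675 bp after succinate. As a share of the 51333 bp window this was 26.99% and 33.1% in control and 43.5% and 48.1% after succinate, with no overlap between the groups. The means were 30.05% ± 4.33 and 45.8% ± 3.22 (SD, n = 2 each), and the difference of 15.7 percentage points exceeded the pooled SD of 3.81 (p = 0.333 by the exact permutation test, its smallest value). The highest signal of the peak lay 5.6 kb below the lower-coordinate end of the gene, which is its start, in all 4 libraries. The peak reached from that place over more of the gene after succinate. It ended at 100726830, just before the gene, in control replicate 1, at 100729637 in control replicate 2, at 100733463 in succinate replicate 1 and at 100735082 in succinate replicate 2. The gene body was thus covered to 0% and 24.2% in control and to 58.0% and 72.3% after succinate.

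The width of the DLK1 peak was set beside all regions that had exactly 1 peak in each H3K27me3 library, a comparison chosen after its values were seen. In 2179 such regions the median widths were 14332 and 13300 bp in control and 14722 and 15087 bp after succinate, and the median fold was 1.05. The DLK1 peak was 1.52-fold wider after succinate, more than in 96.0% of these regions, of which 31.3% were wider in both succinate libraries and 7.71% narrower. The total signal of the peak in steps was 273286 in control replicate 1 and 365227 in control replicate 2. It was 732992 in succinate replicate 1 and higher again in succinate replicate 2. With read depth unknown, steps do not compare strength between libraries, and the broad IGF2 peak also had more steps in both succinate libraries. Within its own library the DLK1 total was above that of 77.7% and 44.3% of peaks in control. After succinate it was above that of 77.7% and 64.8%, so these groups overlapped. The control replicate 1 total falls below the common floor. There the window values became 0% and 33.1% in control and 43.5% and 48.1% after succinate, a difference of 29.2 percentage points. With only the top 50% of each list by total signal the difference was 32.3 percentage points, and both succinate libraries stayed above.

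**Figure D2:**
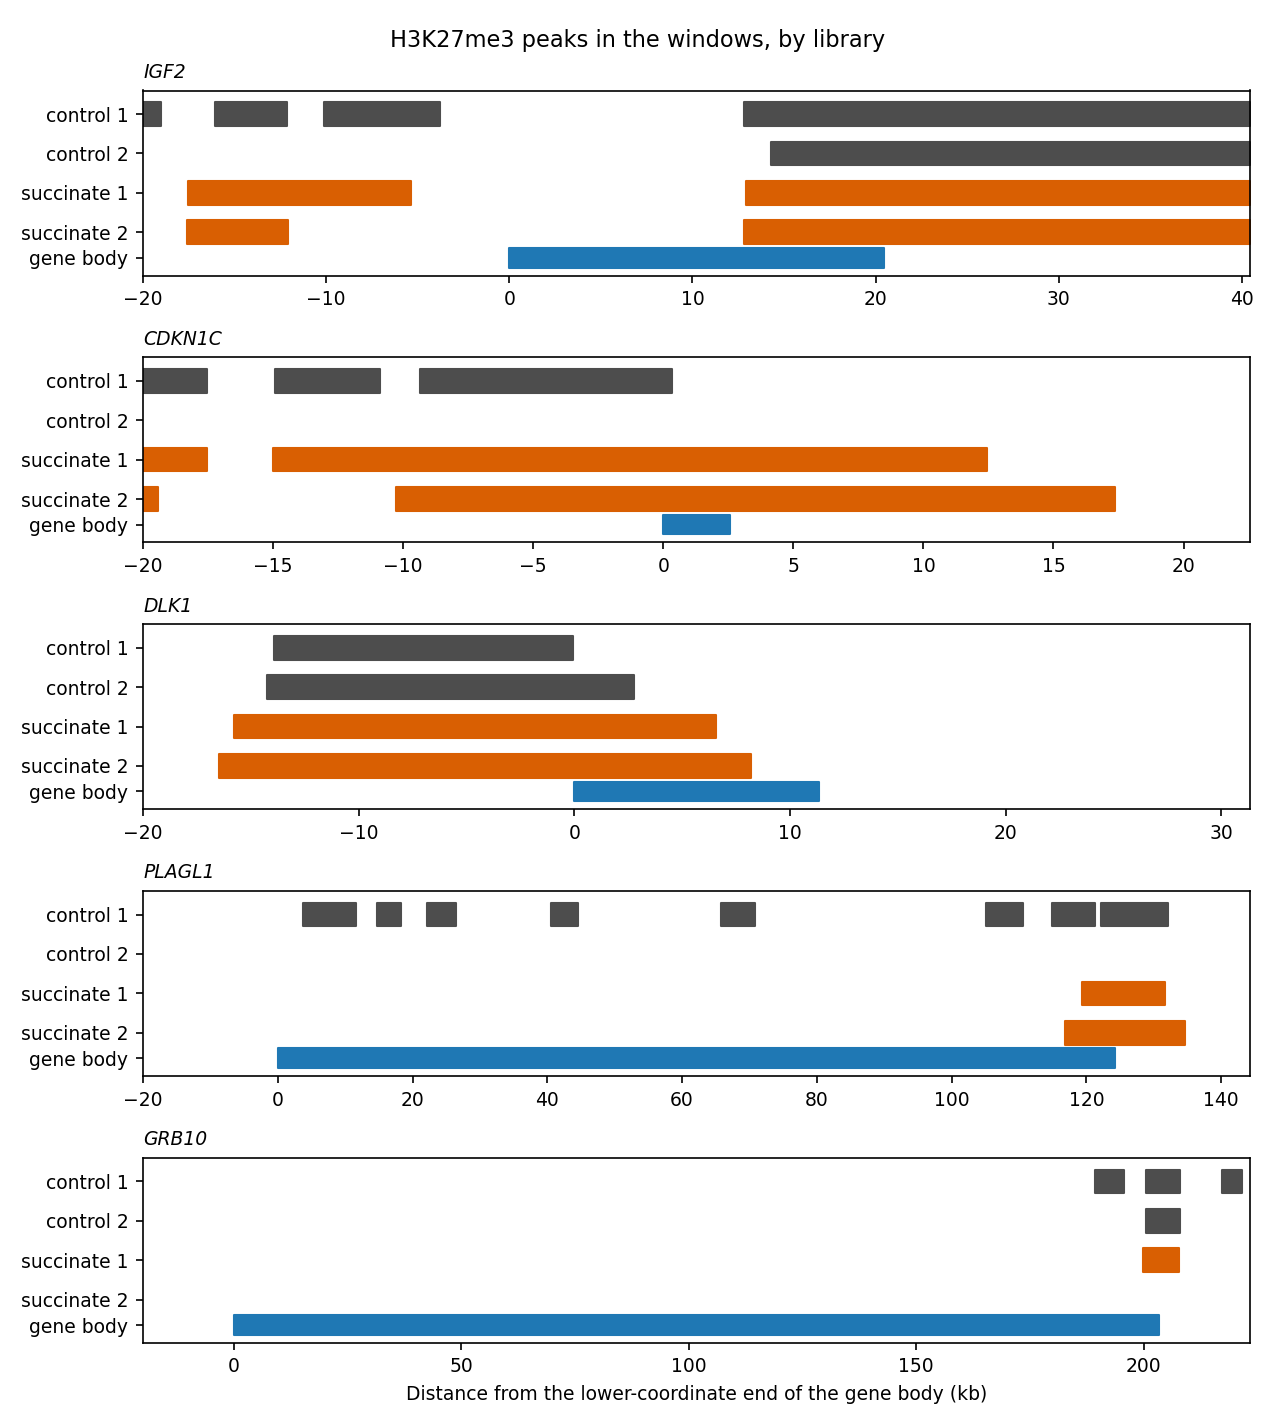
H3K27me3 peaks along the windows of the 5 genes that had any, by library (control black, succinate orange), with the gene body in blue; the horizontal axis is the distance in kb from the lower-coordinate end of the gene body. At CDKN1C and DLK1 the succinate peaks reach further over the gene, and at IGF2 the same broad peak is present in all 4 libraries.

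PLAGL1, a cell-cycle and growth regulator on chromosome 6 from 143940300 to 144064599, had cover that differed more within the control group than between the groups. Peaks covered 28.4% of its 164300 bp window in control replicate 1, 0% in control replicate 2, and 7.48% and 10.8% after succinate. The succinate values lay between the control values, and the difference of -5.09 percentage points was within the pooled SD of 14.3 (exact permutation p = 1). Its direction rested on control replicate 1, since it was 9.13 without that library, and it was -19.3 without control replicate 2. Control replicate 1 held 8 peaks of 3618 to 9917 bp spread over the gene, and in control replicate 2 the nearest peak lay 50.5 kb from the gene. The succinate libraries held a peak each, of 12291 and 17716 bp, over the upper-coordinate end of the gene. With equal numbers of peaks per library the values were 6.04% and 0% in control and 7.48% and 10.8% after succinate, a difference of 6.11, and at a common floor the difference was 5.39.

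GRB10, on chromosome 7 from 50590068 to 50793453, had a narrow H3K27me3 peak over its upper-coordinate end in 3 of 4 libraries. The peak was 7452 bp wide in control replicate 1, 7460 bp in control replicate 2 and 8086 bp in succinate replicate 1. In succinate replicate 2 the nearest peak lay 172.6 kb away. The floor of that library was 330250 steps, and the GRB10 peak totalled 186266, 218942 and 223295 steps in the other 3 libraries. With read depth unknown, steps do not compare strength between libraries, and the part of the floor in this absence was not tested. Peaks covered 7.49% and 3.07% of the 243386 bp window in control and 3.32% and 0% after succinate. The groups overlapped, and the difference of -3.61 percentage points had a pooled SD of 2.77 (p = 0.667, exact permutation test). It was -1.40 without control replicate 1, -5.83 without control replicate 2, -5.28 without succinate replicate 1 and -1.95 without succinate replicate 2. With equal numbers of peaks GRB10 was at 0 in all 4 libraries.

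The upper-coordinate ends of PLAGL1 and GRB10 hold annotated starts, and a further PLAGL1 start shown here lies inside the gene body. The bases upstream of these starts are shown to set the sequence under the mark beside sequence of the same kind without it. The RefSeq promoter table of GRCh38.p14 matched 5 of the 10 members, with 17 entries for PLAGL1, GRB10, MEST, NDN and MAGEL2. IGF2, CDKN1C, PEG3, PEG10 and DLK1 had no entry. Each line gives the 250 bases before a start, 5′ to 3′ on the gene's strand, with every CG dinucleotide in capitals.
PLAGL1, chr6:144064600-144064849, minus strand: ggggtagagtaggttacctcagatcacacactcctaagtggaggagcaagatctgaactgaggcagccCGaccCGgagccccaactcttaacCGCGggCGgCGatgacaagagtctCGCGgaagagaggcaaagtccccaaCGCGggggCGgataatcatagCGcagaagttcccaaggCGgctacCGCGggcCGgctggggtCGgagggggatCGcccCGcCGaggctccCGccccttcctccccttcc
PLAGL1, chr6:144008260-144008509, minus strand: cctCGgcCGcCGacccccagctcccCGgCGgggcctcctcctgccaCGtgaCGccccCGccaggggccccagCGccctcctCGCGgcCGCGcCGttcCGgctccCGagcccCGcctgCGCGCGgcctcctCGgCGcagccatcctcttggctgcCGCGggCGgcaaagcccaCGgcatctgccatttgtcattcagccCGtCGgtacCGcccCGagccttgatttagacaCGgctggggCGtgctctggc
GRB10, chr7:50793454-50793703, minus strand: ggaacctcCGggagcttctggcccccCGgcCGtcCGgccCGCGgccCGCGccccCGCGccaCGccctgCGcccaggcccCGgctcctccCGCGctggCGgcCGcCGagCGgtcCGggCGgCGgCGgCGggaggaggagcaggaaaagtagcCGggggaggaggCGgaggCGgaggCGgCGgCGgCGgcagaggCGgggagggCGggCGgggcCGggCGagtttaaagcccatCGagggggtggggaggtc
MEST, chr7:130486097-130486346, plus strand: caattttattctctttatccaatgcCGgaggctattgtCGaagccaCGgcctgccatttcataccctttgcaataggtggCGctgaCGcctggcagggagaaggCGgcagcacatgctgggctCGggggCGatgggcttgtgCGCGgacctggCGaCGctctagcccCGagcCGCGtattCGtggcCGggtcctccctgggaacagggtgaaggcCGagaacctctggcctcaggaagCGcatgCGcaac
NDN, chr15:23687306-23687555, minus strand: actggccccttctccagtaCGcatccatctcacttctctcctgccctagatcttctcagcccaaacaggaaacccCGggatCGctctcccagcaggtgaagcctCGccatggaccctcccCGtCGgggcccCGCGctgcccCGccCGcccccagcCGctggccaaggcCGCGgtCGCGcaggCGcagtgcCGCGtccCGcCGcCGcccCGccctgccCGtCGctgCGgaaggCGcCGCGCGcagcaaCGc
The letters CG read the same on both strands. These stretches held 21, 32, 37, 20 and 30 CpG. Among all 35116 entries, 32.4% held at least 20 in the same length, and the median was 11. All 5 stretches shown held at least 20, so they do not represent the 17 member entries. Some entries with few CpG were marked too. Counted over 300 bases, the PLAGL1 entries with 3 CpG each lay wholly under H3K27me3 in control replicate 1 and in no other library. A PLAGL1 entry with 2 CpG and GRB10 entries with 3 and 4 had none in any library.

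The first PLAGL1 stretch lay wholly under H3K27me3 in control replicate 1 and both succinate libraries and not in control replicate 2, and the second only in control replicate 1. The GRB10 stretch lay wholly under the mark in both control libraries and succinate replicate 1 and not in succinate replicate 2. The MEST and NDN stretches held 20 and 30 CpG and had no H3K27me3 in any of the 4 libraries. None of the 17 member entries was covered in all 4 libraries, against 8.10% of all entries. Each member with an entry lacked a peak in its window in some library, so no other result was possible. Ksu covered 92.8% of the NDN stretch in succinate replicate 2 and none of it in the other 3 libraries, and the remaining 4 stretches had no Ksu in any of the 4.

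PEG3, PEG10, MEST, NDN and MAGEL2 had no H3K27me3 peak in their windows in any of the 4 libraries, and the distance to the nearest peak differed widely among them. For MEST, on chromosome 7 from 130486175 to 130506465, the same peak of 8320 to 11588 bp lay 99.97 and 99.7 kb away in control and 97.5 and 97.6 kb away after succinate. For NDN, on chromosome 15 from 23685400 to 23687305, a peak of 7889 to 11490 bp lay 241 and 238 kb away in control and 238 kb away in both succinate libraries. MAGEL2, from 23643549 to 23647867 on the same chromosome, had this same peak as its nearest, 196 to 199 kb away. The bodies of NDN and MAGEL2 are 37532 bp apart and their windows share 2468 bp, so these genes are not independent of each other. PEG10, on chromosome 7 from 94656325 to 94669695, had its nearest peak 227 and 228 kb away in control replicate 1 and succinate replicate 1, and 3949 and 3950 kb away in the other two libraries. PEG3, on chromosome 19 from 56810082 to 56840726, lay 601 and 767 kb from the nearest peak in control and 612 and 1300.31 kb after succinate. As in PEG10's case, the libraries with fewer peaks gave the longer distances.

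The count of members covered more in both succinate libraries depended on how the peak lists were matched, and the genes involved were all among the 5 with any peak. With equal numbers of peaks it was 4 of 10 (IGF2, CDKN1C, DLK1 and PLAGL1), beside 12.2% of all genes. In that setting IGF2 had 45.7% and 43.3% of its window covered in control and 65.7% and 54.8% after succinate. With a common floor it was 3 of 10 (IGF2, CDKN1C and DLK1), beside 13.3% of all genes. CDKN1C and DLK1 were above in each of these settings, and no member was covered less in both succinate libraries in any of the 3, beside 1.47% of all genes with equal numbers and 0.629% with a common floor. Dividing each window's percent by the percent of chromosome bases under peaks in the same library put CDKN1C and IGF2 above and GRB10 below, beside 6.88% and 2.28% of all genes. After that division the DLK1 groups overlapped, their ratios being 4.18 and 8.74 (control) against 7.76 and 10.6 (succinate). Chromosome cover was itself higher in both succinate libraries once lists were cut. With equal numbers it was 3.81% and 3.70% in control against 4.41% and 4.52%. With a common floor it was 3.03% and 3.03% against 4.10% and 4.52%. Divided by it, IGF2, CDKN1C, DLK1 and PLAGL1 stayed above with equal numbers. At the common floor CDKN1C stayed above, while IGF2 (15.1 and 14.3 against 16.0 and 12.1) and DLK1 (0 and 10.9 against 10.6 and 10.6) overlapped. The share over all genes was not counted for the cut lists after this division, so whether the members differ from it is unknown.

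**Figure D3:**
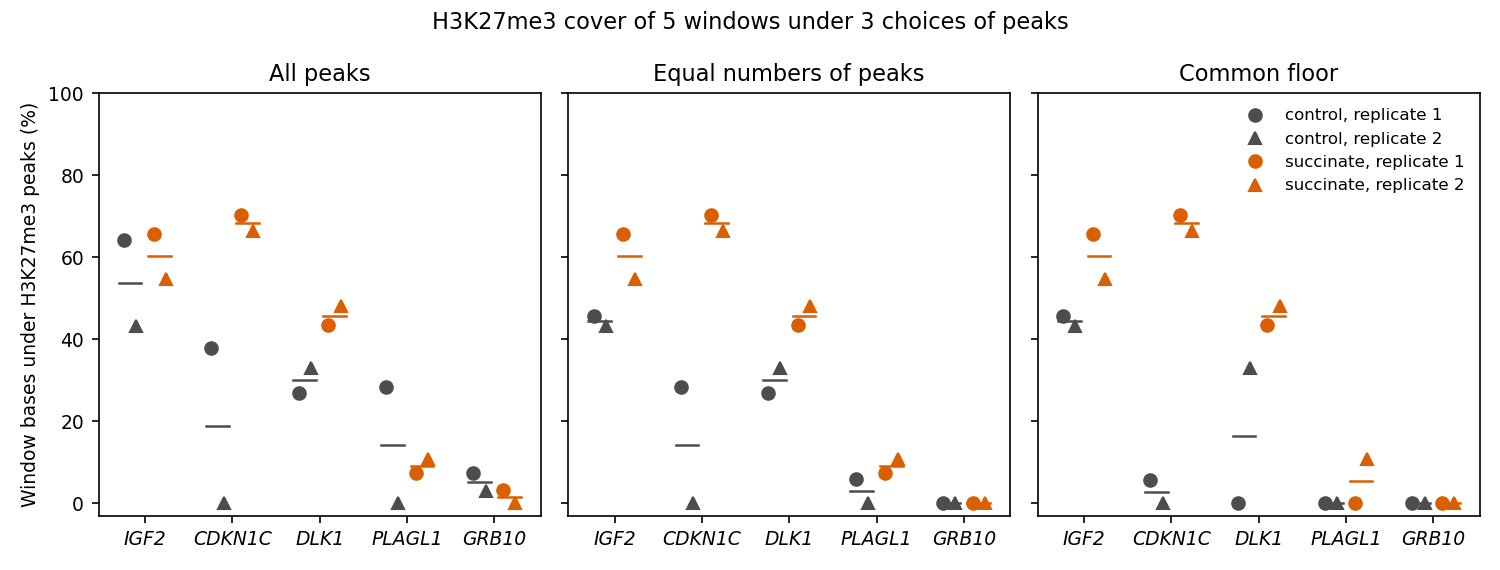
H3K27me3 cover of the windows of the 5 genes with any peak, in percent, with all listed peaks, with equal numbers of peaks per library and with a common floor; dots are libraries and short lines are group means. CDKN1C and DLK1 have both succinate libraries above both control libraries in all 3 settings. IGF2 does so with equal numbers and with a common floor, where both succinate libraries also cover more of the chromosomes.

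A wider list of 35 genes from human imprinted domains, given by counts, also held genes with and without the mark. A peak overlapped the window in all 4 libraries for 12 of 35, beside 20.8% of all protein-coding genes, and in no library for 15 of 35, beside 58.0%. More cover in both succinate libraries was found for 6 (KCNQ1, PHLDA2, SLC22A18, ASCL2, RTL1 and MEG8), and less for 1, the carboxypeptidase gene CPA4. The shares over all genes are 9.28% and 2.01%. Of the 6, KCNQ1, PHLDA2, SLC22A18 and ASCL2 lie in the domains of IGF2 and CDKN1C, and RTL1 and MEG8 in the domain of DLK1, and neighbouring windows share bases and peaks. The 5 with the highest mean cover were INS, DIO3, ASCL2, RTL1 and KCNQ1. INS, the insulin gene inside the IGF2 window, was covered to 94.8% and 91.3% in control and 94.5% and 94.8% after succinate, and these groups overlapped. DIO3, a thyroid hormone deiodinase gene in the domain of DLK1, had 85.1% and 92.2% in control and 90.3% and 65.8% after succinate, again with overlap.

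The other 3 had both succinate libraries above both control libraries. ASCL2, a transcription factor gene beside IGF2, had 76.0% and 52.2% in control and 87.4% and 88.6% after succinate. RTL1, a retrotransposon-derived gene, had 70.5% and 58.5% in control and 80.3% and 78.3% after succinate. KCNQ1 had 55.4% and 49.6% in control and 60.5% and 58.6% after succinate. Of the listed genes from the domains of the 5 uncovered members, some were uncovered and some not. ZIM2 and USP29 beside PEG3, SGCE and PPP1R9A beside PEG10, COPG2 and MESTIT1 beside MEST, and MKRN3, SNRPN and SNURF of the Prader-Willi region had no H3K27me3 peak in any of the 4 libraries, nor did UBE3A. In the MEST domain CPA4 had 33.3% and 29.8% in control and 21.9% and 26.0% after succinate. KLF14, of the same domain, had 14.8% in control replicate 1, 14.9% in succinate replicate 1 and 0% in the other 2 libraries. ATP10A, near UBE3A, had 8.31% and 7.19% in control and 7.97% and 9.52% after succinate. HYMAI, a noncoding RNA gene inside PLAGL1, was covered to 11.7% in control replicate 1 and to 0% in the other 3 libraries.

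Ksu peaks were narrower than H3K27me3 peaks, with median widths of 444 to 977 bp against 6767 to 17454 bp over the whole lists, and all 10 imprinted genes had some. Every member had more of its window covered in both succinate libraries than in either control library, and so did 65.9% of all genes. None had less in both, beside 0.250% of all genes. In control replicate 1 there was no Ksu peak in the windows of 8 members, all but PLAGL1 and GRB10, beside 44.5% of all genes. All 10 had cover in each of the other 3 libraries. There 4.84% (control replicate 2), 5.41% and 2.50% (succinate replicates 1 and 2) of all genes had none. Windows overlapped in all 4 libraries were thus 2 of 10, beside 54.7% of all genes, and windows with no Ksu in any library were 0 of 10, beside 2.36%. PLAGL1 and GRB10 have the longest windows of the 10 (164300 and 243386 bp), and a longer window more easily meets a peak. None of these shares was matched for window length. The median cover of the 10 windows was 0% and 3.94% in control and 6.42% and 12.8% after succinate, and over all genes it was 0.790% and 3.42% in control and 5.34% and 11.0% after succinate. The median difference was 7.32 percentage points for the members and 5.67 for all genes. The share of all chromosome bases under Ksu was also higher in both succinate libraries, and its part in these values was not tested.

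**Figure D4:**
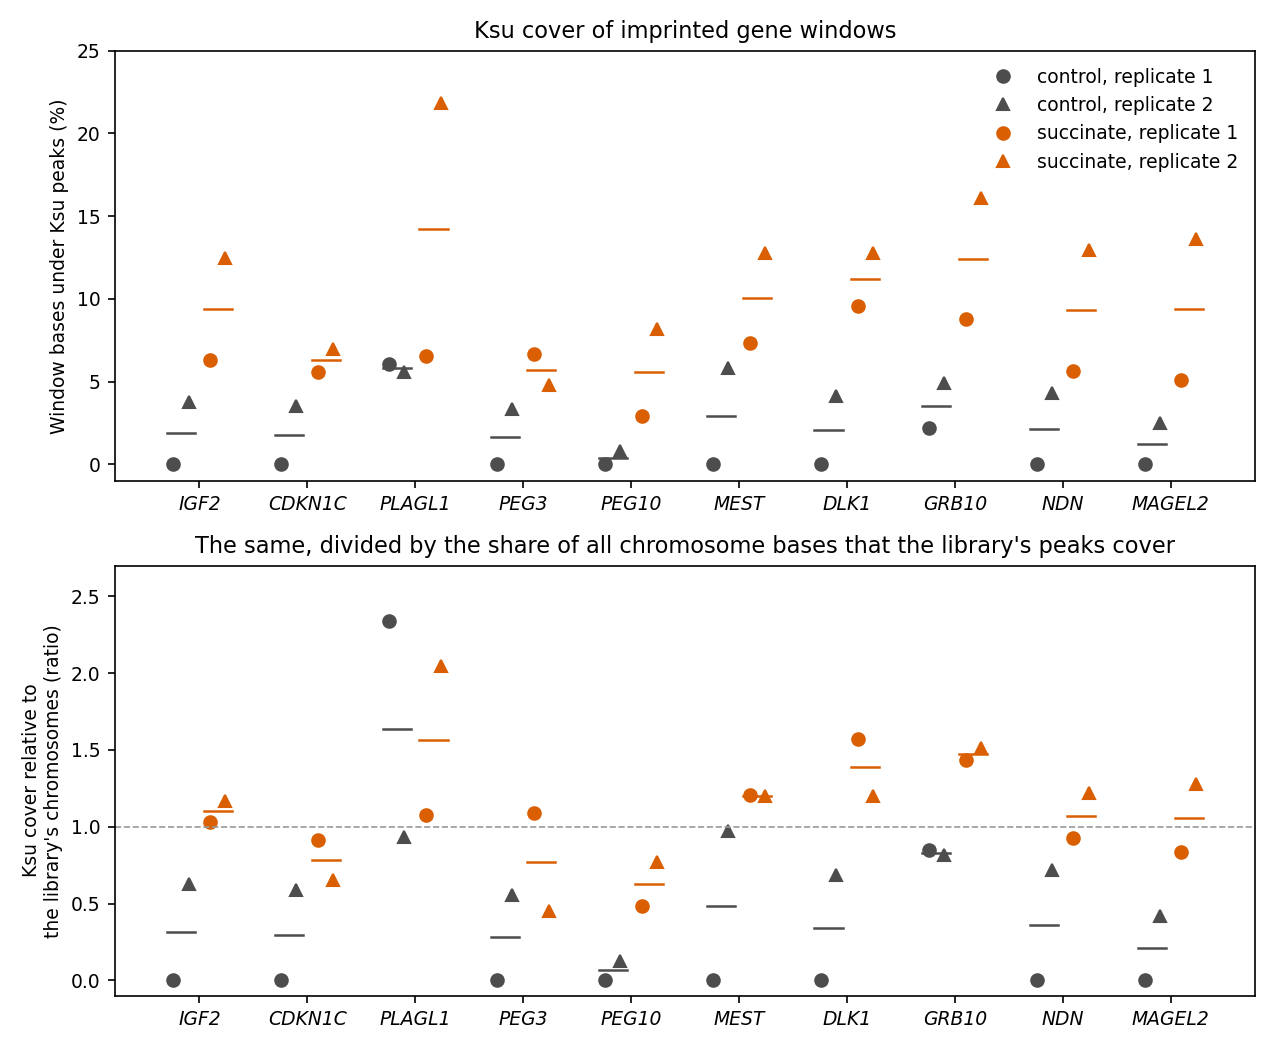
Percent of each gene's window under Ksu peaks in the 2 control and 2 succinate libraries (upper panel). The lower panel shows the same divided by the library's percent of chromosome bases under Ksu, with a dashed line at 1. Dots are libraries and short lines are group means. In each of the 10 windows of the upper panel both succinate libraries lie above both control libraries, beside 65.9% of all genes. Control replicate 1 is at 0 in 8 of them, beside 44.5% of all genes. In the lower panel the groups overlap at PLAGL1 and PEG3.

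Among the signalling genes, DLK1 had the largest difference in Ksu cover, with 0% and 4.12% of its window in control and 9.59% and 12.8% after succinate. The difference of 9.13 percentage points exceeded the pooled SD of 2.60 (n = 2 each, p = 0.333 by the exact permutation test, its smallest value). IGF2 had 0% and 3.77% in control and 6.28% and 12.5% after succinate, a difference of 7.49 with a pooled SD of 3.62, which was 4.39 without succinate replicate 2. Its Ksu lay outside the gene body, which was at 0% in both succinate libraries and in control replicate 1 and at 0.714% in control replicate 2.

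Of the growth inhibitors, GRB10 had 2.20% and 4.90% in control and 8.76% and 16.1% after succinate, a difference of 8.88 with a pooled SD of 3.90, which was 5.21 without succinate replicate 2. The number of its Ksu peaks was 6 and 25 in control and 36 and 71 after succinate. CDKN1C had 0% and 3.53% in control and 5.59% and 6.96% after succinate, a difference of 4.51 with a pooled SD of 1.89, which was 2.74 without control replicate 1. No Ksu peak touched the CDKN1C body in any of the 4 libraries, the same body that H3K27me3 peaks spanned whole in both succinate libraries. The longest stretch under Ksu in both succinate libraries was 1094 bp at GRB10, inside the gene from 50673289 to 50674382, and at CDKN1C it was 550 bp from 2881270 to 2881819, beside the gene.

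PLAGL1 had 6.09% and 5.58% in control and 6.56% and 21.8% after succinate, and its difference of 8.37 became 0.728 without succinate replicate 2 and 16.004 without succinate replicate 1. Succinate replicate 2 held 60 peaks in the window against 8 to 19 in the other 3 libraries. The other zinc-finger gene, PEG3, had 0% and 3.35% in control and 6.66% and 4.79% after succinate. PEG10 had 0% and 0.774% in control and 2.94% and 8.20% after succinate, and MEST had 0% and 5.82% in control and 7.35% and 12.8% after succinate. These 3 genes had both succinate libraries above both control libraries, and none of them had an H3K27me3 peak in its window. NDN had 0% and 4.31% in control and 5.65% and 13.0% after succinate, and MAGEL2 had 0% and 2.51% in control and 5.10% and 13.6% after succinate. At MAGEL2 the gene body followed the window, with 0% and 3.10% in control and 9.40% and 25.8% after succinate. Without succinate replicate 2 the difference went from 5.18 to 2.55 at PEG10, from 7.16 to 4.44 at MEST, from 7.16 to 3.50 at NDN and from 8.11 to 3.84 at MAGEL2. Without succinate replicate 1 it was 7.81 at PEG10, 10.8 at NDN and 12.4 at MAGEL2, and without control replicate 1 it was 4.25 at MEST and 2.38 at PEG3, where it had been 4.05. All these differences kept their sign. No base of any of the 10 windows lay under Ksu peaks in all 4 libraries.

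Matching the Ksu lists removed most of these differences. With equal numbers of peaks, 4 of 10 members (IGF2, PEG3, MEST and DLK1) were covered more in both succinate libraries, beside 27.3% of all genes, and none was covered less, beside 6.25%. There the median difference was 1.49 percentage points against 0.630 over all genes. In that setting DLK1 had 0% in both control libraries and 4.68% and 3.85% after succinate, and MEST had 0% in both control libraries and 4.65% and 2.06% after succinate. With a common floor only DLK1 was covered more, beside 13.5% of all genes, and none was covered less, beside 0.274%. There the floor of control replicate 1 applied to all 4 libraries, and control replicate 2 had no Ksu in any of the 10 windows and none in 96.9% of all genes' windows. Divided by the percent of chromosome bases under Ksu in the same library, 8 of 10 members were higher in both succinate libraries, all but PLAGL1 and PEG3, beside 48.5% of all genes, and none was lower in both, beside 4.84%. At DLK1 this ratio was 0 and 0.69 in control and 1.57 and 1.199 after succinate, where 1 is the level of the chromosomes as a whole. At PEG3 it was 0 and 0.56 in control and 1.09 and 0.45 after succinate, so the groups overlapped.

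Both marks met at the 5 genes with H3K27me3, and the share of bases under Ksu was compared inside and outside the H3K27me3 peaks of the same window, a comparison chosen after values were seen. H3K27me3 and Ksu libraries of the same treatment and replicate number were set together. Over the 14 pairs of a gene and a library with at least 1 kb of each kind and some Ksu, the share was higher inside in 12. By library these were 1 of 2 in control replicate 1, 3 of 3 in control replicate 2, 4 of 5 in succinate replicate 1 and 4 of 4 in succinate replicate 2. Over all genes the shares were 44.4%, 54.3%, 60.3% and 56.5%. The 5 windows share libraries, so these pairs are not independent.

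At DLK1 the share under Ksu was 6.58% inside and 2.90% outside in control replicate 2, 21.9% and 0.124% in succinate replicate 1, and 17.9% and 7.998% in succinate replicate 2. In succinate replicate 1, 4888 of the 4924 bp under Ksu in the window lay within the H3K27me3 peak. IGF2 had 5.21% inside and 2.67% outside in control replicate 2, 8.28% and 2.46% in succinate replicate 1, and 19.9% and 3.43% in succinate replicate 2. The contrast at CDKN1C was smaller, with 6.26% inside and 3.998% outside in succinate replicate 1 and 7.30% and 6.28% in succinate replicate 2. PLAGL1 went either way, with 13.1% inside and 3.30% outside in control replicate 1, 6.004% and 6.61% in succinate replicate 1 and 27.6% and 21.1% in succinate replicate 2. GRB10 had 11.8% inside and 4.68% outside in control replicate 2 and 26.0% and 8.17% in succinate replicate 1, and in control replicate 1 it had 0% inside and 2.38% outside.

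**Figure D5:**
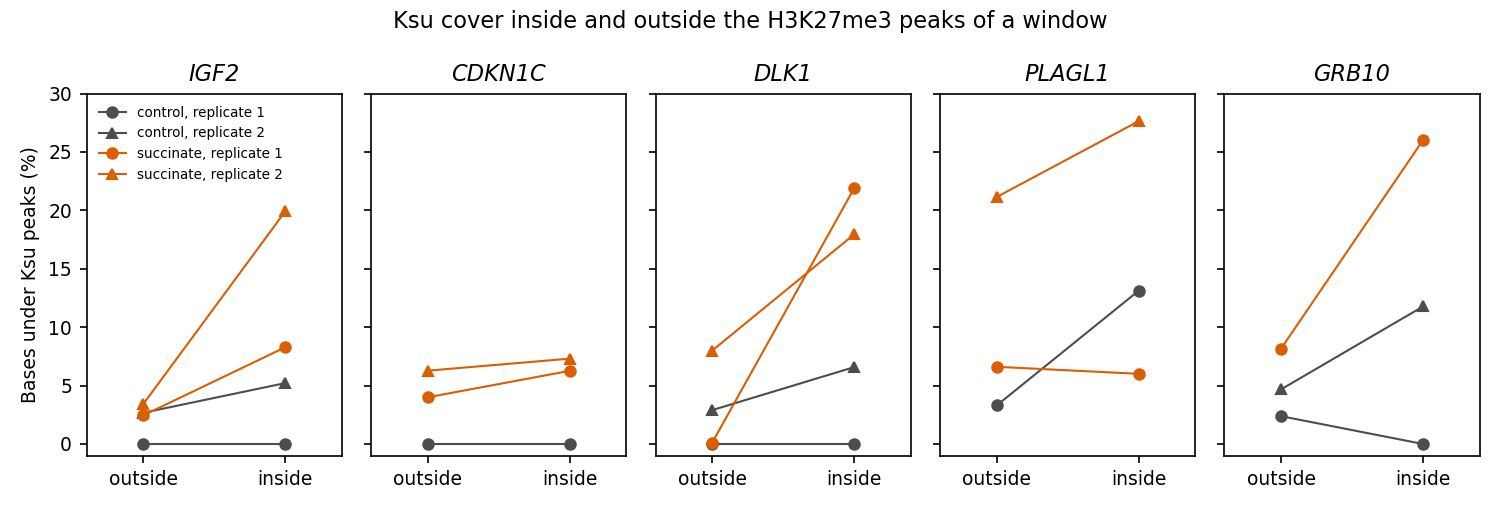
Percent of bases under Ksu peaks inside and outside the H3K27me3 peaks of each window, for the 5 genes with any H3K27me3, by library; each line joins the 2 values of a library. At IGF2 and DLK1 the inside value is above the outside value in the 3 libraries that had Ksu there, and at PLAGL1 the direction differs between libraries.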

How the data were processed

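H3K27me3 and Ksu were profiled by CUT&Tag in 8 libraries. Per the submitters' processing notes the build was hg38 and peaks were called with SEACR. The deposited lists are stringent lists, per the file names, with 1 list per library. The authors deposited for each peak its coordinates, total signal and highest signal. The aligner, the scaling of the signal, the control track, the threshold and read numbers are not given in the sources used here. All highest-signal values (100%) of a list were multiples of 1 step, to within 0.02 of a whole number, so signal was used only within a library or in steps.

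From the lists, bases of each gene window under peaks were counted with Python 3.11.15, numpy 2.4.6 and pandas 2.3.3, and figures drawn with matplotlib 3.10.9. Genes came from RefSeq (GRCh38.p14), 20037 of them protein-coding on 24 chromosomes. Start coordinates were counted from 1. A member was counted where both succinate libraries lay above, or both below, both control libraries. The test was the exact two-sided permutation test over 6 arrangements, whose smallest p is 0.333, and the calculation was checked on simulated data. Replicates are biological per the labels, which do not say whether cultures were separate, so a p-value measures only the spread between these samples. Alternatives were equal numbers of peaks (5531 for H3K27me3, 76702 for Ksu), a common floor, the top 50% of peaks, peaks merged within 1 kb, the gene body alone, 50 kb on either side, each replicate left out, the replicate number as a block, and division by each library's chromosome cover. All 10 members are named, with 5 genes of the wider list by mean H3K27me3 cover and its genes beside members; the others named by direction were chosen after their values were seen. H19 is not analysed here. The members, the lists and these alternatives were chosen with earlier results of these data known.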

Additional observations from a re-analysis of the deposited data

How the results depend on the processing

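Of 240 alternative values for the 20 differences of single members, 60 belong to the 5 members with no H3K27me3, which were at 0 throughout. The replicate number as a block cannot change a difference of means. Its values for the 20 differences were thus the same from the outset and are counted among the 202 below. Among all 240, 202 were counted as the same, 4 of them with the opposite sign, and 35 as moved. A further 3 changed sign where both succinate libraries had been above. For values in percentage points, the same meant a difference from the value with all peaks of less than the replicate spread. Values after division by chromosome cover are ratios, so that spread is no measure for them, though they are counted here too. In all, 7 values had the opposite sign. For H3K27me3 these were PLAGL1 with equal numbers of peaks (6.11), at the common floor (5.39) and without control replicate 1 (9.13), and IGF2 without control replicate 2 (-4.11 percentage points). For Ksu they were PLAGL1 at the common floor (-1.12 percentage points) and after division by the library's chromosome cover (a ratio difference of -0.0716), and IGF2 in the gene body alone (-0.36 percentage points). The cause was not tested. The number of members covered more by H3K27me3 in both succinate libraries was 2 with all peaks (9.28% of all genes) and 4 with equal numbers of peaks (12.2%). It was 2 after division by the library's chromosome cover (CDKN1C and IGF2 in place of CDKN1C and DLK1), beside 6.88%. The number covered less was 0 with all peaks (2.01%) and 1 after that division (2.28%). Both numbers changed in some runs with a library left out. Those runs leave a single library in a group, so their counts are not given. For Ksu the number covered more was 10 (65.9% of all genes), against 4 with equal numbers of peaks (27.3%) and 1 with the common floor (13.5%). In the gene body alone it was 4, and the share over all genes was not counted there. The 2 members overlapped by H3K27me3 in all 4 libraries were 2 at a minimum overlap of 1 kb too, and 0 promoter entries were covered in all 4. Neither of these members has a promoter entry, so that 0 was fixed in advance.

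The labels number the replicates without saying that a number marks a shared culture or day. Deviations of same-numbered libraries had a correlation of 0.277 for H3K27me3 and 0.132 for Ksu over windows. With the replicate number as a block, 3 members were covered more by H3K27me3 in both pairs (13.2% of all genes) and 1 less (GRB10, 3.53% of all genes), and 10 were covered more by Ksu (85.6%). The exact test within 2 pairs cannot give a p below 0.5. With read depth unknown and floors that differ between libraries, absence of a peak cannot be told apart from signal below the library's floor.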
